A study of Mus musculus with 24 samples.

Results

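The 10 genes described here help to set whether pyruvate is oxidised or carboxylated once it has reached the mitochondrion. They are the pyruvate dehydrogenase kinases Pdk1, Pdk2, Pdk3 and Pdk4, the pyruvate dehydrogenase phosphatases Pdp1 and Pdp2, the catalytic E1 alpha subunit Pdha1, pyruvate carboxylase Pcx, and the mitochondrial pyruvate carrier subunits Mpc1 and Mpc2. They were taken by gene symbol from a table of 41549 mouse genes, and all 10 were among the 15916 genes with enough counts to be tested. The libraries came from dispersed pancreatic islet cells of wild-type C57BL/6NRj mice, male and female, 12 to 14 weeks old. The cells were transfected with 50 pmol of a locked nucleic acid antisense oligonucleotide (ASO), either a control (Ctr) or αGlu, which is directed at the tRNA fragment 5'tRF-Glu(CTC), and were then kept for 48 h with 0.5 mM palmitate (PA) bound to bovine serum albumin (BSA) or with 0.75% BSA alone. Each of the 4 combinations of ASO and treatment has 6 libraries, with 3 in each of 2 batches. Every group was transfected, so no group shows untouched islet cells, and the labels do not say what a batch is. By the study's methods, the libraries of a group are independent experiments on islets of different animals, and the groups of one experiment shared their animals. Which libraries belong to one experiment is not labelled. Consecutive library numbers form 6 sets of 4 with 1 library of each group, and a fit with these sets as a replicate block, an assumption chosen after the data had been seen, is given where it changes a call.

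Pyruvate enters the mitochondrial matrix through a carrier built from Mpc1 and Mpc2. The pyruvate dehydrogenase complex (PDH) turns it into acetyl-CoA, while pyruvate carboxylase turns it into oxaloacetate, a reaction for which β-cells have a high capacity. The Pdk kinases phosphorylate Pdha1 and switch the complex off, and the Pdp phosphatases remove the phosphate and switch it back on. Pdk4 is known as the kinase gene that fasting and fatty acids raise in muscle, heart and liver, through the lipid-sensing PPAR receptors. Transcript levels do not give the phosphorylation of the complex or the flux through it.

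The treatment that separates the αGlu from the Ctr groups is a short oligonucleotide, shown with its target so that the sequence it is directed at can be seen. Both are written 5′ to 3′ as DNA letters. Capitals mark the 20 bases of the target that pair with the oligonucleotide, which begin at base 2 of the target.
αGlu ASO: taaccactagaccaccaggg
5'tRF-Glu(CTC) target: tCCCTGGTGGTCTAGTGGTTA

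Total counts ranged from 18214719 to 35001979 per library, with a median of 26701202. Library S1 (Ctr BSA, batch 1) stood apart: 15.9% of its counts fell on a single transcript, CT010467.1, which took 0.549% to 3.47% of the other libraries, and its TMM scaling factor was 0.853 against 0.939 to 1.06 elsewhere. All 7 β-cell markers examined, Ins1 and Ins2 included, were detected in every library. With PA, 2 of the 7 rose and 3 fell in Ctr, and 2 rose and 2 fell in αGlu. Their summed CPM (depth-scaled counts, with TMM factors) had medians of 130700 in Ctr BSA and 97430 in Ctr PA. In αGlu the medians were 114700 and 107300, and the ranges overlapped in both ASOs. In Ctr, 1 of 5 alpha, 1 of 2 delta and 2 of 5 ductal markers and the PP marker fell with PA. In αGlu, 1 delta and 2 ductal markers fell. The 7 acinar markers summed to 2604 to 20800 CPM in batch 1 and to 192 to 530 CPM in batch 2. Of the 5 fibroblast and stellate markers, 4 fell with PA in Ctr and 3 in αGlu. In bulk RNA, fewer cells of a type and less RNA per cell cannot be told apart.

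Corrected for length, the transcripts of Pdha1, Pcx and Mpc1 were the most abundant of the 10. On the deposited TPM scale, which corrects for both length and depth, the mean over the 24 libraries was 82.2 ± 9.99 (SD) for Pdha1, 71.0 ± 9.03 for Pcx and 63.2 ± 8.20 for Mpc1. Pdha1 was above Pcx in 17 of 24 libraries and Pcx above Mpc1 in 19, so these neighbours overlapped. A clear gap followed, since Mpc1 was above Pdk4 in 24 of 24 libraries.

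The regulators formed a lower tier. Pdk4 had a mean of 21.8 ± 11.5 TPM, the widest spread of the 10 genes, followed by Pdk3 at 15.7 ± 2.50, Pdk2 at 14.9 ± 1.77 and Pdk1 at 12.1 ± 2.26 TPM. The phosphatases were lower still, with Pdp2 at 10.1 ± 1.56 and Pdp1 at 7.28 ± 1.39 TPM, and Mpc2 lay between them at 8.74 ± 0.782 TPM. Each neighbour in this order was the higher one in 14 to 21 of the 24 libraries, so no step within the lower tier held in every library. The TPM ratio of Mpc1 to Mpc2, its partner in the carrier, was 7.22 ± 0.981 in Ctr BSA (SD, n = 6) and 7.39 ± 0.737 in Ctr PA. Without length correction the gap was smaller, with Ctr BSA means of 44.6 CPM for Mpc1 and 21.8 CPM for Mpc2. Pdk1, the lowest kinase by TPM, had the highest kinase CPM there, 32.2 against 13.5 to 16.4. The order of the genes and the size of this ratio thus depend on the gene lengths behind TPM. Part of the Mpc1 signal is uncertain: 11.03% of the 50-base stretches in its transcripts also occur in other genes, mainly the pseudogene Mpc1-ps, and 15.3% on the opposite strand of others, mainly 4930506C21Rik.

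Palmitate raised Pdk4, the fatty-acid responsive kinase gene, more than any other of the 10 genes, in both ASO groups and in both batches. Pdk4 lies on the minus strand of chr6:5483351-5496309 (GRCm38). In batch 1, its level was 18.4, 19.5 and 14.1 CPM in the 3 Ctr BSA libraries and 52.0, 51.0 and 38.3 CPM in the 3 Ctr PA libraries. In batch 2 it was 16.9, 12.3 and 15.5 CPM in Ctr BSA and 31.2, 29.3 and 33.3 CPM in Ctr PA. All 6 Ctr PA libraries were thus above all 6 Ctr BSA libraries, and the 3 of batch 1 were above the 3 of batch 2.

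The αGlu libraries showed the same separation for Pdk4. In batch 1 they had 19.9, 17.5 and 13.3 CPM with BSA and 49.4, 52.2 and 36.6 CPM with PA, and in batch 2 16.4, 10.3 and 20.1 CPM with BSA and 26.6, 27.2 and 30.5 CPM with PA. The groups did not overlap in either ASO. With the spread estimated over all 24 libraries and batch in the model, the log2 fold change of Pdk4 with PA was 1.26 (SE 0.150, edgeR quasi-likelihood test, Benjamini-Hochberg adjusted p = 1.14e-06) in Ctr and 1.16 (SE 0.150, edgeR adjusted p = 3.40e-06) in αGlu. These are 2.39-fold (95% interval 1.93 to 2.96) and 2.23-fold (1.80 to 2.76) increases.

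**Figure D1:**
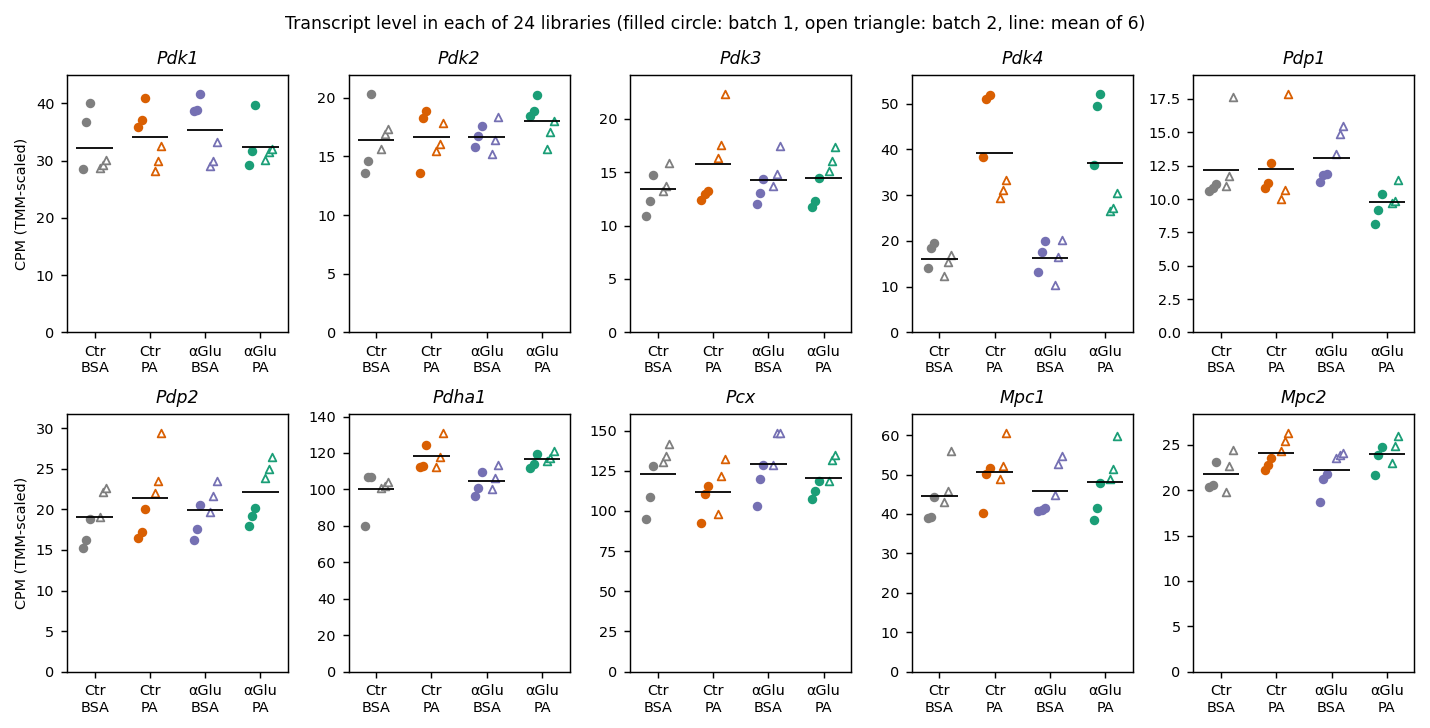
Level of each of the 10 transcripts (y axis, TMM-scaled CPM from 0) in the 24 libraries by group (x axis), with filled circles for batch 1, open triangles for batch 2 and a line at the mean of the 6 libraries of a group. The PA libraries sit above all BSA libraries for Pdk4 in both ASOs, while most other genes overlap between groups and several are shifted between batches.

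The increase in Pdk4 was larger in batch 1, but that difference did not pass the test across all genes. Fitted on batch 1 alone, the log2 fold change was 1.43 (SE 0.186, edgeR adjusted p = 0.000635) in Ctr and 1.44 (SE 0.184, edgeR adjusted p = 0.000789) in αGlu. On batch 2 alone it was 1.07 (SE 0.185, edgeR adjusted p = 0.00320) in Ctr and 0.85 (SE 0.185, edgeR adjusted p = 0.00970) in αGlu. The PA responses of the 2 batches differed by -0.48 (batch 2 minus batch 1, log2, SE 0.197, unadjusted p = 0.0225, edgeR adjusted p = 0.674). None of the 10 genes passed for this difference, against 0.0565% of all genes tested. Pdk4 was the 1 gene of the 10 with an unadjusted p under 0.05, against 6.18% of all genes tested. With the sets as a block, 0.509% of all genes passed, and the Pdk4 difference was -0.46 (SE 0.116, edgeR adjusted p = 0.0872). Acinar markers were also higher in batch 1, and they fell with PA, 6 of 7 in each ASO. The part of acinar, fibroblast or β-cell RNA in the Pdk4 increase of either batch, or in the batch difference, was not tested.

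The promoter of Pdk4 is shown because it is the gene of the set with the largest response, and because the PPAR, FOXO and HIF factors linked to Pdk genes have known binding letters that can be looked for. The 219 bases printed run from the plus-strand position range chr6:5496310-5496528 (GRCm38, from the RefSeq promoter table) and are written 5′ to 3′ on the minus strand, ending just before the longest annotated transcript starts. Capitals mark ATTGG, the reverse complement of a CCAAT box, whose leftmost base lies 131 bases before the RefSeq start. It was picked out after the sequence had been seen.
Pdk4 upstream: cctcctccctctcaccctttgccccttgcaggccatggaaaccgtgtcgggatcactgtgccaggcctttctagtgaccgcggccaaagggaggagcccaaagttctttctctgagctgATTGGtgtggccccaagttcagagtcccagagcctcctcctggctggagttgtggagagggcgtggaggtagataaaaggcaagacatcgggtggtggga

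Of the 10 genes, 9 had an entry in that table, with 13 promoters between them. In the 250 bases before the start, on both strands, none of the 13 held the direct repeat with a single spacing base that PPAR binds with RXR, which 0.0335% of the 32851 promoters held. None held GTAAACA, a FOXO site, found in 3.17% of promoters. AGGTCA, one copy of that repeat, occurred in 1 promoter, of Mpc1, against 14% of all promoters. ACGTG, the core of the HIF site, occurred in 4 promoters, of Pcx, Pdk2, Pdk3 and Pdp2, against 16.6% of all. CCAAT was present in 33.8% of all promoters and in 7 of the 13. Letters in these windows are a description only and do not show where a factor binds.

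The other kinase genes did not pass the test with PA in either ASO. Pdk1, at chr2:71873224-71903858 and known as a hypoxia-inducible kinase gene, had 28.5 to 40.02 CPM (median 29.7) in Ctr BSA and 28.3 to 40.9 CPM (median 34.2) in Ctr PA, a log2 fold change of 0.074 (SE 0.0786, edgeR adjusted p = 0.507). Pdk2, at chr11:95026258-95041354 and the most widely expressed family member, had medians of 16.3 and 16.95 CPM in these groups, a log2 fold change of 0.029 (SE 0.0907, edgeR adjusted p = 0.838). For both, the groups overlapped over most of their range. Their 95% intervals in Ctr were 0.941- to 1.18-fold for Pdk1 and 0.896- to 1.16-fold for Pdk2, so a change of the size seen for Pdk4 lies outside both.

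Pdk3, at chrX:93764607-93832201, came nearer to the threshold in Ctr without passing it. It had 10.9 to 15.9 CPM (median 13.5) in Ctr BSA and 12.4 to 22.3 CPM (median 14.8) in Ctr PA. The log2 fold change was 0.21 (SE 0.0965, unadjusted p = 0.0411, edgeR adjusted p = 0.107) in Ctr and 0.020 (SE 0.0961, edgeR adjusted p = 0.902) in αGlu. Within batches, the Ctr value was 0.39 (SE 0.130, edgeR adjusted p = 0.0717) in batch 2 and 0.0083 (SE 0.132, edgeR adjusted p = 0.977) in batch 1. Without library S5 (Ctr BSA) it was 0.28 and passed the test (edgeR adjusted p = 0.0311).

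The make-up of the kinase transcripts differed between BSA and PA on the TPM scale, where each share depends on the gene lengths used. Pdk4 supplied 23.8% ± 2.84 (SD, n = 6) of the summed Pdk1 to Pdk4 TPM in Ctr BSA and 40.9% ± 6.66 in Ctr PA. In αGlu the share was 23.01% ± 4.66 with BSA and 39.8% ± 7.68 with PA. The lowest PA share, 32.1%, was above the highest BSA share, 27.4%, so the shares did not overlap between treatments in any combination of groups. Within PA, the Ctr share was 46.6% ± 3.46 in batch 1 and 35.2% ± 1.42 in batch 2 (n = 3 each). The summed kinase TPM was 51.7 ± 6.43 in Ctr BSA and 75.8 ± 9.70 in Ctr PA, and 56.7 ± 5.36 in αGlu BSA and 74.1 ± 12.6 in αGlu PA. The lowest Ctr BSA sum, 41.01 TPM, was that of S1, the library with 15.9% of its counts on CT010467.1. The other Ctr BSA sums ran from 49.29 TPM (S17) to 60.62 TPM (S5), so S1 lowers the Ctr BSA mean.

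**Figure D2:**
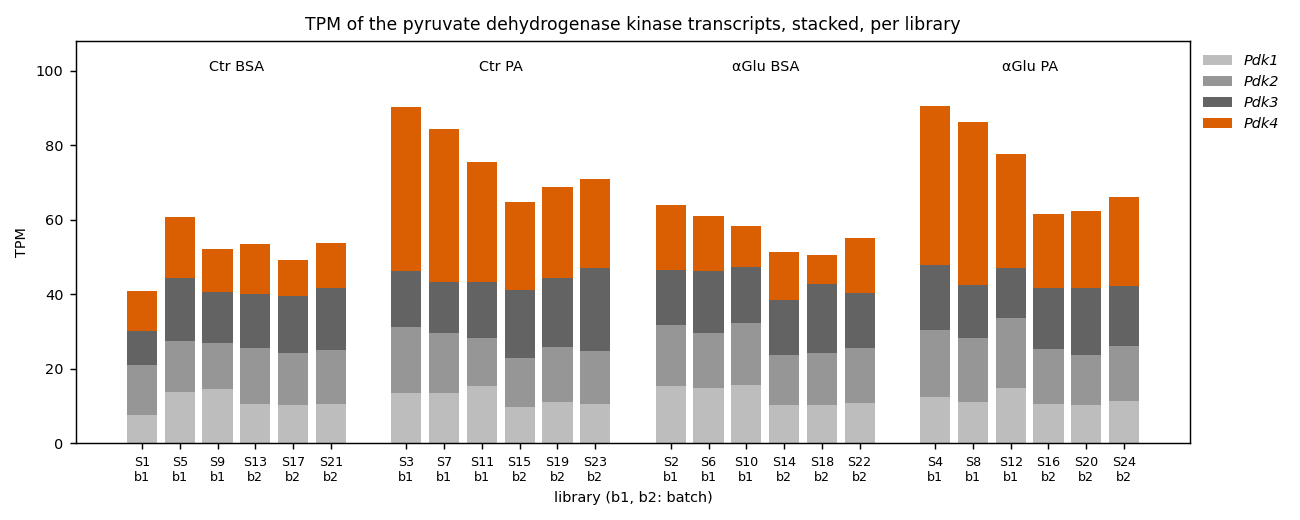
Stacked TPM of Pdk1, Pdk2, Pdk3 and Pdk4 (y axis, from 0) in each library (x axis, b1 and b2 for batch), ordered by group. The Pdk4 segment is 7.88 to 17.6 TPM in the BSA libraries and 19.8 to 43.8 TPM in the PA libraries.

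The phosphatases showed no common response to PA. Pdp1, the calcium-stimulated isoform at chr4:11958184-11966452, had 10.6 to 17.7 CPM (median 11.1) in Ctr BSA and 10 to 17.9 CPM (median 11.02) in Ctr PA, a log2 fold change of 0.011 (SE 0.122, edgeR adjusted p = 0.956). In αGlu it had 11.3, 11.8, 11.9, 13.4, 14.9 and 15.4 CPM with BSA and 8.14, 9.14, 9.73, 9.85, 10.4 and 11.4 CPM with PA, in ascending order. The 2 αGlu groups overlapped only through the highest PA library, at 11.4 CPM, and the lowest BSA library, at 11.3 CPM. Pdp1 fell in αGlu by 0.42 on the log2 scale (SE 0.123, edgeR adjusted p = 0.0129), or to 0.7497-fold (95% interval 0.629 to 0.893).

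That decrease held its direction in each batch but passed the test in neither batch alone. Pdp1 changed by -0.34 (log2, SE 0.119, edgeR adjusted p = 0.0913) in batch 1 of αGlu and by -0.50 (SE 0.215, edgeR adjusted p = 0.164) in batch 2. The PA response of Pdp1 in αGlu minus that in Ctr was -0.43 (SE 0.173, unadjusted p = 0.0212, edgeR adjusted p = 0.999), which did not pass across all genes. With the sets as a block it was -0.43 (SE 0.133, unadjusted p = 0.00400, edgeR adjusted p = 0.971). Within the 6 sets it was negative each time, from -0.63 to -0.18 in log2 CPM. These values come from the same libraries, split into sets assumed after the data had been seen, so they are not a separate test. Pdp1 also had the smallest unadjusted p for this difference among the genes described here. The share of all tested genes with the same sign in every set is not given. Libraries S21 (Ctr BSA, 17.7 CPM) and S23 (Ctr PA, 17.9 CPM) were each far above the others of their group, and the set that holds both gave -0.40. Left out singly, they moved the difference in opposite directions, to -0.54 without S21 (unadjusted p = 0.00223) and to -0.31 without S23 (unadjusted p = 0.0557).

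Pdp2, the isoform that calcium does not stimulate, at chr8:104591451-104599026, rose by a small amount over both ASOs combined, and in neither ASO alone did it pass the test. It had 15.3 to 22.6 CPM (median 18.97) in Ctr BSA and 16.5 to 29.4 CPM (median 21.04) in Ctr PA, and 16.2 to 23.5 CPM (median 20.1) in αGlu BSA and 17.98 to 26.5 CPM (median 22.02) in αGlu PA. The groups overlapped in both ASOs. Its log2 fold change was 0.17 (SE 0.0816, edgeR adjusted p = 0.131) in Ctr, 0.14 (SE 0.0811, edgeR adjusted p = 0.191) in αGlu and 0.15 (SE 0.0575, edgeR adjusted p = 0.0310) over both ASOs. Leaving out S23 gave 0.12 over both ASOs (edgeR adjusted p = 0.0556). The TPM share of Pdp2 in the phosphatase pair was 55.5% ± 4.11 and 58.1% ± 4.29 in Ctr BSA and PA, and 54.6% ± 2.81 and 64.0% ± 2.95 in αGlu BSA and PA. In αGlu these shares did not overlap, with 57.9% the highest in BSA and 59.4% the lowest in PA.

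Kinase and phosphatase transcripts together gave a higher kinase to phosphatase ratio with PA. The summed Pdk TPM divided by the summed Pdp TPM was 3.24 ± 0.534 in Ctr BSA and 4.31 ± 1.03 in Ctr PA, and 3.17 ± 0.467 in αGlu BSA and 4.42 ± 1.04 in αGlu PA (SD, n = 6). The pooled ranges overlapped. Within a batch they did not: in batch 1 of Ctr the ratio was 3.22 to 3.88 with BSA and 4.05 to 5.61 with PA, and in batch 2 2.54 to 3.02 and 3.07 to 3.88. In αGlu it was 3.17 to 3.79 and 4.76 to 5.89 in batch 1, and 2.73 to 2.90 and 3.43 to 3.70 in batch 2. These ratios weigh transcripts, depend on the gene lengths behind TPM, and say nothing of the activity of each isoform.

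Pdha1, the subunit that the kinases phosphorylate, rose slightly with PA. It lies at chrX:160122209-160138413. It had 79.7 to 106.8 CPM (median 102.9) in Ctr BSA and 112 to 131 CPM (median 115) in Ctr PA, without overlap. In αGlu it had 96.4 to 113 CPM (median 104) with BSA and 112 to 121 CPM (median 117) with PA, and the groups overlapped slightly. The log2 fold change was 0.24 (SE 0.0586, edgeR adjusted p = 0.00286), or 1.18-fold, in Ctr and 0.16 (SE 0.0585, edgeR adjusted p = 0.0433), or 1.12-fold, in αGlu. Without S1, whose 79.7 CPM was the lowest value, the Ctr log2 fold change was 0.19 (edgeR adjusted p = 0.00389). The αGlu call was weak: it was lost in 11 of the 24 fits that left out 1 library. Pdha1 shares 12.5% of its 50-base stretches with the antisense strand of Map3k15, and whether counting used strand is not given in the sources used here.

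Pyruvate carboxylase had lower values with PA that did not pass the test. Pcx, at chr19:4510472-4621752, had 94.97 to 141 CPM (median 129) in Ctr BSA and 92.8 to 132 CPM (median 113) in Ctr PA, with overlapping groups. Its log2 fold change was -0.13 (SE 0.0778, edgeR adjusted p = 0.219) in Ctr, -0.098 (SE 0.0776, edgeR adjusted p = 0.371) in αGlu and -0.11 (SE 0.0549, edgeR adjusted p = 0.0937) over both ASOs. With the sets as a block the value over both ASOs was -0.11 (SE 0.0448) and passed (edgeR adjusted p = 0.0409). With Pdha1 rising and Pcx at slightly lower values, the TPM ratio of Pcx to Pdha1 was 0.980 ± 0.203 in Ctr BSA and 0.748 ± 0.131 in Ctr PA, and 0.977 ± 0.144 in αGlu BSA and 0.812 ± 0.0626 in αGlu PA. The ratios overlapped in both ASOs. In batch 1 of Ctr they were 1.26 (S1), 0.699 (S5) and 0.801 (S9) with BSA and 0.585 to 0.806 with PA. In batch 2 of Ctr they were 1.01 to 1.1 with BSA and 0.589 (S23) to 0.882 with PA, without overlap. The αGlu ratios overlapped in batch 1 (0.737 to 1.05 with BSA, 0.738 to 0.790 with PA) and not in batch 2 (0.9495 to 1.16 and 0.793 to 0.9135).

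The carrier genes had small positive values with PA. Mpc1, at chr17:8282904-8297661, had 38.9 to 56.1 CPM (median 43.7) in Ctr BSA and 40.1 to 60.6 CPM (median 50.9) in Ctr PA, a log2 fold change of 0.18 (SE 0.0795, edgeR adjusted p = 0.0835). Mpc2, at chr1:165460637-165481214, had 19.9 to 24.4 CPM (median 21.6) in Ctr BSA and 22.2 to 26.3 CPM (median 23.9) in Ctr PA, a log2 fold change of 0.14 (SE 0.0587, edgeR adjusted p = 0.0693). In αGlu the values were 0.064 (SE 0.0793) for Mpc1 and 0.12 (SE 0.0585) for Mpc2, with edgeR adjusted p = 0.594 and 0.140. Over both ASOs Mpc2 rose by 0.13 on the log2 scale (SE 0.0414, edgeR adjusted p = 0.0130), a call that neither batch alone kept, and Mpc1 gave 0.12 (SE 0.0561, edgeR adjusted p = 0.0750). With the sets as a block Mpc1 passed in Ctr (0.18, SE 0.0695, edgeR adjusted p = 0.0475) and over both ASOs (0.12, SE 0.0491, edgeR adjusted p = 0.0423).

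**Figure D3:**
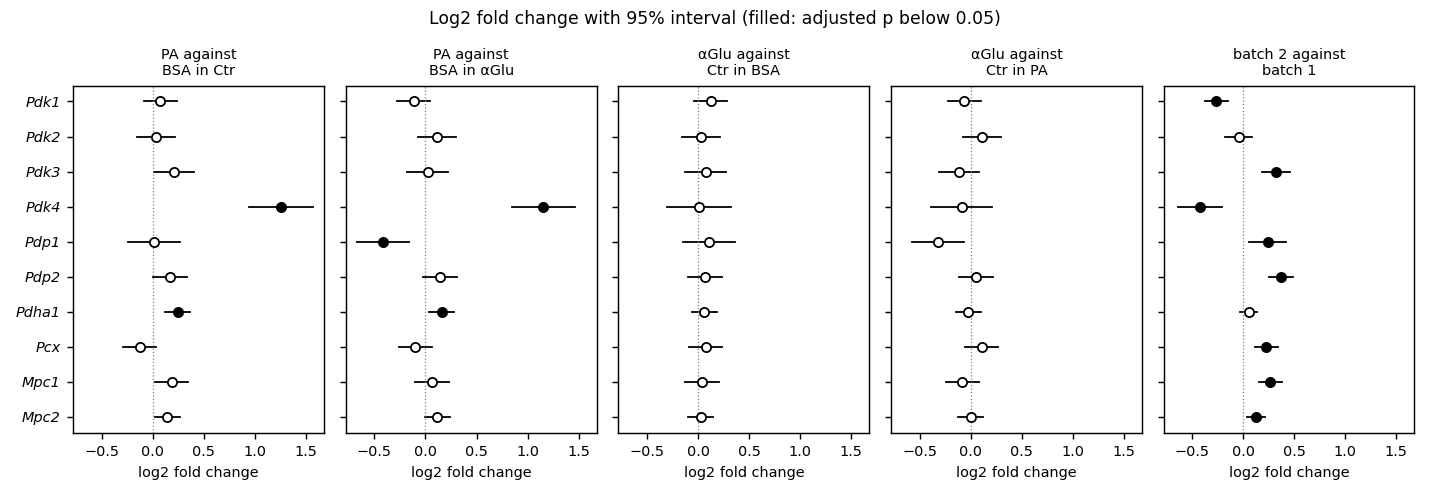
Log2 fold change (x axis) of each gene (y axis) with its 95% interval in 5 comparisons, with filled points at an adjusted p below 0.05. Pdk4 at 1.26 and 1.16 in the PA panels stands away from the other genes, no point is filled in the panels of αGlu against Ctr, and 8 of 10 are filled in the batch panel.

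Counted together, 2 of the 10 genes rose with PA in Ctr (Pdk4 and Pdha1) and none fell, in a comparison where 15.5% of all tested genes rose and 14.5% fell. In αGlu, 2 rose (Pdk4 and Pdha1) and 1 fell (Pdp1), where 14.4% of all tested genes rose and 14.2% fell. Over both ASOs, 4 rose (Pdk4, Pdha1, Pdp2 and Mpc2) and none fell, against 23.4% and 22% of all tested genes. Pdp1 over both ASOs was -0.20 (edgeR adjusted p = 0.0598) and was called lower with DESeq2 (-0.21, adjusted p = 0.0443) and with upper-quartile scaling (-0.21, edgeR adjusted p = 0.0455). With the sets as a block, 5 rose over both ASOs and 2 fell (Pdp1, at -0.21 with edgeR adjusted p = 0.0125, and Pcx), against 25.5% and 24.3% of all tested genes. By the study's own threshold, a fold above 2 with unadjusted p below 0.05, Pdk4 was the 1 gene of the 10 called in each, where 0.854% of all genes in Ctr, 0.823% in αGlu and 0.704% over both ASOs were called higher. Groups that did not overlap were seen for Pdk4 and Pdha1 in Ctr, against 5.82% of genes tested, for Pdk4 in αGlu, against 8.12%, and for Pdk4 over both ASOs, against 2.63%. The median log2 fold change of the 10 genes was 0.15 in Ctr and 0.089 in αGlu, and that of all tested genes was 0.0074 and 0.0055. The Ctr and αGlu comparisons have their own BSA and PA libraries and share none. They are not independent, since the groups of one experiment shared their animals and the spread was estimated over all 24 libraries.

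The αGlu oligonucleotide made no difference that passed the test for any of the 10 genes. In BSA, 0 of 10 were called by edgeR, against 0% of all genes (0.0565% with the sets as a block). An unadjusted edgeR p under 0.05 was found for 0 of 10, against 2.90% of all genes. DESeq2 called 0 of 10, and 8 genes among all tested. In PA, edgeR called 0 of 10, against 0% of all genes, and 1 had an unadjusted p under 0.05, against 3.38% of all genes. DESeq2 called 0 of 10 there, and 30 genes among all tested. Over both treatments, edgeR called 0 of 10, against 0.239% of all genes (0.408% with the sets as a block). None of the 10 had an unadjusted p under 0.05, against 3.895% of all genes, and DESeq2 called 0 of 10 and 90 genes among all tested. The log2 fold changes of the 10 genes lay between 0.013 and 0.12 in BSA and between -0.32 and 0.11 in PA. The lowest was Pdp1 in PA, at -0.32 (SE 0.123, unadjusted p = 0.0151, edgeR adjusted p = 0.993).

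For Pdk4, the level with αGlu relative to Ctr was 1.01-fold (95% interval 0.812 to 1.25) in BSA and 0.941-fold (0.766 to 1.16) in PA. In PA, a decrease below 0.766-fold or an increase above 1.16-fold lies outside the interval. For the difference between the PA responses of αGlu and Ctr, edgeR called 0 of the 10 genes, against 0% of all genes, and DESeq2 called 0 genes among all tested. An unadjusted p under 0.05 was found for 1 of 10, against 2.09% of all genes. With the sets as a block it was found for 2 of 10, Pdk1 and Pdp1, against 525 of all 15916 genes. Pdk4 differed there by -0.10 (log2, SE 0.210, edgeR adjusted p = 0.999).

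Between the batches, 8 of the 10 genes passed the test. Of these, 6 were higher in batch 2, as were 26.1% of all genes, and 2 were lower, as were 25.4% of all genes. Pdp2 was the largest increase, with a log2 fold change of 0.37 (batch 2 against batch 1, SE 0.0576, edgeR adjusted p = 8.22e-06), followed by Pdk3 at 0.32, Mpc1 at 0.27, Pdp1 at 0.24, Pcx at 0.23 and Mpc2 at 0.13. Pdk4 fell by 0.42 (SE 0.105, edgeR adjusted p = 0.00157) and Pdk1 by 0.27 (SE 0.0555, edgeR adjusted p = 2.91e-04). The Pdk4 value is an average over treatments, and its gap lay mainly in PA. Its means in batches 1 and 2 were 47.1 and 31.3 CPM in Ctr PA and 46.1 and 28.1 CPM in αGlu PA. With BSA they were 17.3 and 14.9 CPM in Ctr and 16.9 and 15.6 CPM in αGlu. Pdk2 and Pdha1 did not pass, at -0.045 (edgeR adjusted p = 0.580) and 0.051 (edgeR adjusted p = 0.315). The Pdp1 value rests on single libraries: it was 0.18 without S21 (edgeR adjusted p = 0.0558) and 0.18 without S23 (edgeR adjusted p = 0.0561). In batch 2 against batch 1, all 7 β-cell markers rose and all 7 acinar markers fell. Of the 5 alpha markers 4 fell and 1 rose, and of the 5 ductal markers 3 fell and 1 rose. The PP marker, 1 of 2 delta and 3 of 5 endothelial markers fell, and 1 of 5 macrophage and 1 of 5 glia markers rose. The part of cell composition in these batch differences was not tested.

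The genes around the switch give its setting, from 7 lists. Their counts stand beside the shares over all tested genes: 15.5% rose and 14.5% fell with PA in Ctr, and 14.4% rose and 14.2% fell in αGlu. With the sets as a block these shares were 18% and 17.2% in Ctr and 17.2% and 16.9% in αGlu. A count of 1 gene in a short list is near such a share. Of 8 other genes of the PDH complex and its lipoylation, 4 rose with PA in Ctr and none fell: Dlat, the E2 core, at 0.20 (log2, SE 0.0441, edgeR adjusted p = 0.00108), Dld, the E3 enzyme, at 0.20 (SE 0.0598, edgeR adjusted p = 0.0121), Pdhb, the E1 beta partner of Pdha1, at 0.12 (SE 0.0440, edgeR adjusted p = 0.0453), and Lipt1, a lipoyltransferase, at 0.48 (SE 0.159, edgeR adjusted p = 0.0254). In αGlu edgeR called 0 of the 8, with 0 at an unadjusted p under 0.05, against 39.06% of all genes tested. The difference between the 2 responses was called for 0 of the 8, against 0% of all genes. Lipt1 was the 1 gene of the 8 with an unadjusted p under 0.05 there, at -0.59 (SE 0.223, edgeR adjusted p = 0.999), against 2.09% of all genes. The median of the 8 was 0.033 in Ctr and -0.011 in αGlu. On batch 1 alone 1 of the 8 was called in Ctr, and on batch 2 alone none.

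Among 12 genes that make or exchange pyruvate and lactate, 1 rose and 3 fell in Ctr, and 1 rose and 3 fell in αGlu. Pklr, the liver-type pyruvate kinase also used by β-cells, rose by 0.40 (SE 0.0873, edgeR adjusted p = 0.00136) in Ctr and by 0.47 (SE 0.0865, edgeR adjusted p = 2.48e-04) in αGlu. Ldha, the lactate dehydrogenase that β-cells normally hold low, was 48.03 ± 19.4 CPM with BSA and 21.8 ± 13.3 CPM with PA in Ctr (SD, n = 6) and fell, with a log2 fold change of -1.19 (SE 0.201, edgeR adjusted p = 8.63e-05). In αGlu it fell from 44.9 ± 18.3 to 17.8 ± 11.9 CPM (-1.43, SE 0.203, edgeR adjusted p = 1.08e-05). Slc16a3, a lactate exporter, changed by -1.13 (SE 0.344, edgeR adjusted p = 0.0148) and its level was 4.13 ± 2.19 CPM in Ctr BSA. The other gene that fell in Ctr was Ldhb. Without S1 and S21, 1 rose and 1 fell in Ctr, and with the sets as a block 2 rose and 4 fell, with Me1 and Slc16a7 added. The fibroblast and stellate markers fell with PA too, by a median of 3.04 on the log2 scale in Ctr, from sums of 65.0 to 410 CPM in BSA to 6.70 to 41.0 CPM in PA. Of 5 macrophage markers, 3 fell in Ctr (median -2.13) and 1 in αGlu (median 0.059). Their sums were 75.7 to 330 CPM (median 136) in Ctr BSA and 83.6 to 127 CPM (median 91.2) in Ctr PA. In αGlu they were 87.9 to 166 CPM (median 115) with BSA and 80.2 to 137 CPM (median 114) with PA. The groups overlapped in both ASOs, and the difference between the PA responses of the ASOs was called for 0% of all genes. The part of macrophage and fibroblast RNA in the fall of Ldha was not tested.

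Downstream of acetyl-CoA, 10 of 18 tricarboxylic acid cycle genes rose and 1 fell with PA in Ctr, and 11 rose and 1 fell in αGlu. Suclg2, the GTP-forming succinyl-CoA ligase subunit, went from 55.2 ± 2.65 to 75.0 ± 3.57 CPM in Ctr, a log2 fold change of 0.44 (SE 0.0464, edgeR adjusted p = 2.07e-07) with no overlap between groups. Ogdhl at 0.48, Idh3a at 0.29 and Idh3b at 0.23 rose as well. The gene that fell was Dlst, the E2 subunit of the oxoglutarate dehydrogenase complex. With upper-quartile scaling 6 rose in Ctr, and on batch 1 and batch 2 alone 5 and 3 did. The median of the 18 genes was 0.15 in Ctr and 0.18 in αGlu.

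Of 13 shuttle genes that carry carbon between mitochondrion and cytosol, 6 rose and 2 fell in each ASO. Got1, an aspartate aminotransferase of the malate-aspartate shuttle, rose by 0.56 (SE 0.0673, edgeR adjusted p = 1.31e-06) in Ctr, and Slc25a1, the citrate carrier, by 0.37 (SE 0.0633, edgeR adjusted p = 1.07e-04). Those that fell were Acly, which splits exported citrate, and Gpd2, the mitochondrial glycerol phosphate dehydrogenase. Of 5 genes of the branched-chain ketoacid dehydrogenase, a sister complex with its own kinase and phosphatase, 1 rose in Ctr: its kinase Bckdk, at 0.25 (SE 0.0644, edgeR adjusted p = 0.00457). In αGlu 1 rose and 1 fell, with Bckdk again the gene that rose, at 0.27 (SE 0.0642, edgeR adjusted p = 0.00259), and its E1 beta subunit Bckdhb the gene that fell, at -0.26 (SE 0.0905, edgeR adjusted p = 0.0340). With the sets as a block 2 fell in αGlu, with the E2 subunit Dbt added.

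The response of Pdk4 sat among fatty-acid oxidation and PPAR target genes that rose in nearly all cases. Of 19 listed, 17 were tested, since Ucp3 and Cyp4a10 had too few counts. In Ctr 15 of the 17 rose and none fell, with a median log2 fold change of 0.86. In αGlu 16 rose and none fell, with a median of 0.92. Cpt1a, the entry step of mitochondrial fatty-acid oxidation, went from 36.2 ± 5.89 to 162 ± 6.90 CPM in Ctr, a log2 fold change of 2.18 (SE 0.0803, edgeR adjusted p = 8.72e-16), and Slc25a20, the carnitine carrier, rose by 1.45 (SE 0.0862, edgeR adjusted p = 2.08e-11). The Pdk4 increase of 1.26 was thus between the list's median and its largest values.

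Of 9 transcription factors and coactivators linked to Pdk genes, 3 rose and 1 fell in Ctr, and 2 rose and none fell in αGlu. Pparg rose by 0.62 (SE 0.0821, edgeR adjusted p = 4.09e-06) and Ppargc1a, a coactivator of mitochondrial genes, by 0.93 (SE 0.173, edgeR adjusted p = 2.60e-04) in Ctr. Hif1a rose by 0.24 (SE 0.0759, edgeR adjusted p = 0.0195), and Foxo3 fell by 0.18 (SE 0.0509, edgeR adjusted p = 0.00957). In αGlu against Ctr over both treatments, edgeR called 0 genes of any of the 7 lists, against 0.239% of all genes tested. Of the genes listed, 4 had an unadjusted p under 0.05 there: Bckdha, Slc16a7, Fh1 and Esrra. The share over all genes tested was 3.895%.

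**Figure D4:**
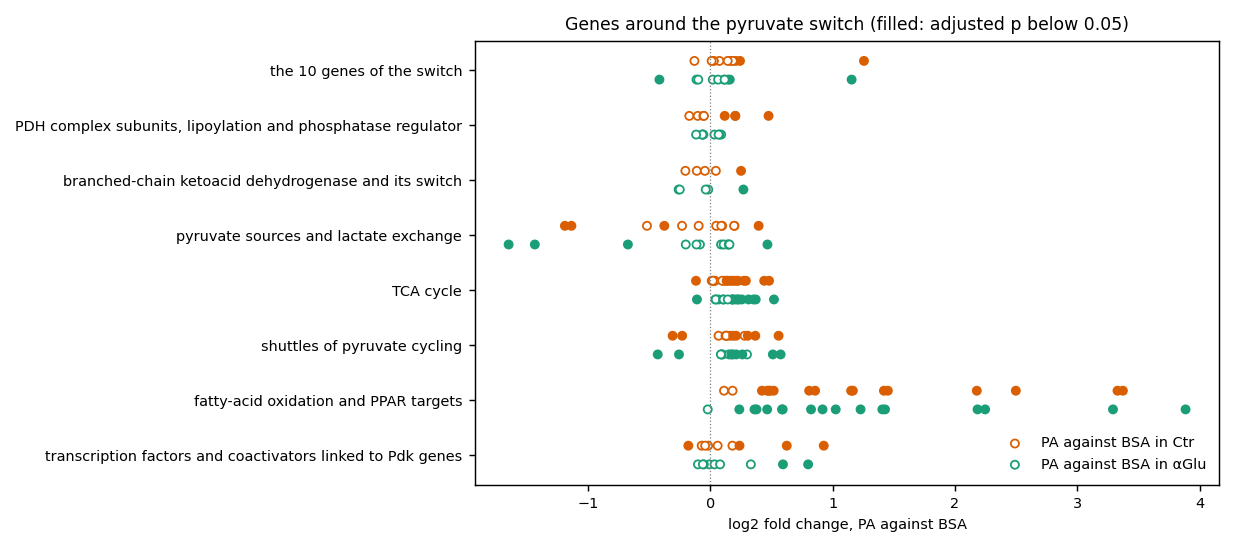
Log2 fold change of PA against BSA (x axis) for the 10 genes and 7 lists of neighbouring genes (y axis), in orange for Ctr and green for αGlu, with filled points at an adjusted p below 0.05. Most fatty-acid oxidation and PPAR target genes lie to the right of 0, as Pdk4 does, while the pyruvate and lactate list reaches to -1.19 in Ctr and -1.65 in αGlu.

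The transcripts whose levels followed each gene most closely over the 24 libraries are given as a description, from log2 CPM centred within each batch, so that the treatment shapes the correlation and the libraries share depth and batch. Pdk4 was followed most closely by Hpgds (Pearson r = 0.956), Nudt7 (r = 0.945) and Dlgap1 (r = 0.942). For Pdha1 the closest were Ascc3 (r = 0.946), Stt3a (r = 0.937) and Slc35f5 (r = 0.935). For Pcx they were Pcif1 (r = 0.909), Arhgef17 (r = 0.908) and Baiap3 (r = 0.896). The closest gene to Pdk3 was Hif1a (r = 0.835). The closest values for Pdk1, Pdk2, Pdp1, Pdp2, Mpc1 and Mpc2 were lower than those of Pdk4, between 0.795 and 0.848. Among the 10 genes themselves, Pdk4 and Pdha1 gave r = 0.681 and Pdk3 and Pcx gave r = -0.717.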

How the data were processed

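Stranded mRNA libraries from 24 samples of transfected mouse islet cells were examined. Read annotation by the authors used version 5.1 of the QIAGEN RNA-seq Analysis Portal (GRCm38 per the submitters' processing notes). Aligner, annotation and strand setting were not given in the sources used here. Exon read counts per gene, as deposited, were used for all edgeR and DESeq2 tests. The authors' TPM values were used to compare genes with each other, for shares, sums and ratios of genes by group, and for limma. The gene lengths behind these values were not checked, and comparisons between genes depend on them. Another 48 columns, RPKM and CPM of the same libraries, were not used. Empty cells were read as 0.

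Counts were filtered with filterByExpr, scaled by TMM and tested with edgeR 4.0.16 in R 4.3.3 (quasi-likelihood F-test, two-sided, group and batch as terms, all 24 libraries sharing the spread). P-values were adjusted by Benjamini-Hochberg over 15916 genes, and called below 0.05. The standard error (SE) is the absolute log2 fold change over the root of F. The change of response between batches was fitted with a term for each group and batch. The 9 comparisons gave 90 tests of the 10 genes. Alternatives were DESeq2 1.42.0, limma 3.58.1 on log2(TPM + 1), other scaling and filters, no batch term, each batch alone, each library left out, S1 and S21 left out together, and the 6 sets of consecutive library numbers as a replicate block in place of batch. The last pair, the CCAAT motif and the list counts under other settings were chosen after seeing the data. All genes of the set are named, and from each list up to 4 genes of smallest p with PA in Ctr and up to 2 for αGlu against Ctr, with any further gene named after its values were seen. The 10 genes and the lists were chosen with earlier results of these data known. On simulated counts for PA against BSA in Ctr over 15916 genes, 81% of 2-fold and 87% of 4-fold changes were called, and for the difference between the PA responses of αGlu and Ctr, 67% and 87%. These counts had no batch or set effect and 100 altered genes at each size. Changes below 2-fold were not simulated, so the shares do not give the power for the smaller values of most of the 10 genes. The sets were checked by correlating, across genes, deviations from the mean of each group and batch between libraries of different groups: r was 0.018 to 0.37 within sets (above 0.1 in 25 of 36 pairs) and -0.31 to 0.12 between sets of a batch, and 23 of 24 libraries had their highest r within their own set. The pairs above 0.1 were 6 of 6 in each of sets 1 to 3, which are batch 1. In sets 4, 5 and 6, which are batch 2, they were 3, 3 and 1 of 6. The sets are a hint from the data, weaker in batch 2, since the labels do not give them. Sequences and promoters came from RefSeq (GRCm38.p6) and the study's oligonucleotide list, and gene positions from GENCODE (GRCm38).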

Additional observations from a re-analysis of the deposited data

Results flagged for a closer look

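In 40 checks of single libraries within a group of 6 (10 genes in 4 groups), 4 libraries stood far from the other 5 by Dixon's criterion, which chance alone meets in about 1 of 20 checks. Pdk1 was 39.8 CPM in library S12 of αGlu PA, where the others had 29.2 to 32.1 CPM. Pdp1 was 17.7 CPM in S21 of Ctr BSA, where the others had 10.6 to 11.7 CPM. Pdp1 was also 17.9 CPM in S23 of Ctr PA, where the others had 10 to 12.7 CPM. Pdha1 was 79.7 CPM in S1 of Ctr BSA, where the others had 101 to 107 CPM, and S1 is the library with 15.9% of its counts on CT010467.1. Library S21 also had the highest sum of the 5 macrophage markers, 330.2 CPM, where the largest sums in Ctr PA, αGlu BSA and αGlu PA were 127, 166 and 137 CPM.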

How the results depend on the processing

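The Pdk4 increase with PA kept its direction and passed the threshold under every alternative run, with log2 fold changes of 1.07 to 1.43 in Ctr (highest adjusted p = 0.00320) and 0.85 to 1.44 in αGlu (highest adjusted p = 0.00970). No alternative called any of the 10 genes for αGlu against Ctr or for either difference of responses. Counts of genes called moved by over 1.5 times in these cases: batch 1 alone gave 1, 1 and 1 for PA in Ctr, in αGlu and over both ASOs, batch 2 alone gave 1 in αGlu and 2 over both ASOs, the threshold of the study gave 1, 1 and 1 for PA and 0 between batches, and limma on log2(TPM + 1) gave 5 between batches. Pdha1 in Ctr lost its call in batch 1 alone (adjusted p = 0.142). Pdha1 in αGlu lost it with DESeq2 (adjusted p = 0.0525), no filter (0.0652), no batch term (0.0901), limma (0.312), either batch alone (0.343 and 0.170) and 11 of 24 omissions of 1 library. Pdp2 over both ASOs lost it without S2, S11, S17, S18, S20 or S23, with no batch term (adjusted p = 0.202), limma (0.0616), S1 and S21 left out (0.0539) and either batch alone (0.545 and 0.0514). Calls were gained without 1 library by Mpc1 in Ctr (S11, S19 or S21), Mpc2 in Ctr (S1 or S13), Pdk3 in Ctr (S5), and over both ASOs by Mpc1 (S11, S12, S19 or S21), Pcx (S5 or S6) and Pdp1 (S4, S11, S17 or S23). Pdp1 over both ASOs was also called lower with DESeq2 (-0.21, adjusted p = 0.0443) and upper-quartile scaling (-0.21, adjusted p = 0.0455), and with S1 and S21 left out Mpc2 was called in Ctr (0.18) and Mpc1 over both ASOs (0.15). With the 6 sets of libraries as a replicate block, 7 of the 10 genes were called over both ASOs, with Pdp1, Pcx and Mpc1 added, and Mpc1 was added in Ctr. The block changed no other call of the 10 genes, and over both ASOs it called 4061 of all 15916 genes higher and 3867 lower, where the fit without it called 7221 in all. The causes were not tested.

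Values that changed sign were small and had not passed the test, and they are given as log2 fold changes. With upper-quartile scaling they were Pdp1 -0.011 for PA in Ctr and Mpc2 0.0066 for αGlu in PA. With no filter on low counts it was Mpc2 0.0016 for αGlu in PA. On batch 1 alone they were Pdk3 -0.042 for PA in αGlu, Pdk3 -0.017 for PA over both ASOs, Pdk4 -0.037 and Mpc2 -0.050 for αGlu in BSA, Pdk3 0.0019 and Mpc2 0.041 for αGlu in PA, Pdk1 -0.0011, Pdk3 0.027 and Mpc2 -0.0045 for αGlu over both treatments, and Pdk4 0.0057 and Mpc2 0.090 for the difference of PA responses between ASOs. On batch 2 alone they were Pdk2 -0.016 and Pdp1 -0.070 for PA in Ctr, Pdk1 0.024 for PA in αGlu, Pdk1 0.033 for PA over both ASOs, Pdk2 -0.0027 for αGlu in BSA, Pdk1 0.049 for αGlu in PA and Mpc1 0.027 for αGlu over both treatments. With limma on log2(TPM + 1) they were Pdk1 0.0089 for PA over both ASOs, Mpc2 0.0050 for αGlu in PA, Pdk3 0.028 and Mpc1 0.025 for αGlu over both treatments, Pcx -0.032 for the difference between ASOs and Pdha1 -0.030 between batches. With S1 and S21 left out they were Pdha1 -0.0099 and Mpc1 0.00066 for αGlu over both treatments, Pdk2 -0.017 and Pcx -0.027 for the difference between ASOs, and Pdha1 0.047 and Mpc1 0.054 for the difference between batches.

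Leaving out 1 library at a time also turned some signs. The ranges were, for PA in Ctr, Pdk2 -0.025 to 0.095 and Pdp1 -0.10 to 0.12, for PA in αGlu, Pdk3 -0.021 to 0.059, and for PA over both ASOs, Pdk1 -0.045 to 0.0085. For αGlu in BSA they were Pdk2 -0.027 to 0.093, Pdk4 -0.12 to 0.10 and Mpc2 -0.0097 to 0.060, and for αGlu in PA, Pdha1 -0.043 to 0.0049 and Mpc2 -0.025 to 0.023. For αGlu over both treatments they were Pdk3 -0.038 to 0.026, Pdk4 -0.10 to 0.0075, Pdha1 -0.0073 to 0.033, Mpc1 -0.043 to 0.0038 and Mpc2 -0.0071 to 0.029. For the difference between ASOs they were Pdk4 -0.19 to 0.029, Pdp2 -0.062 to 0.051, Pcx -0.026 to 0.079 and Mpc2 -0.061 to 0.0051, and for that between batches, Pdha1 -0.055 to 0.042, Mpc1 -0.072 to 0.041 and Mpc2 -0.066 to 0.0066.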
